A study of Mus musculus with 4 samples.

Results

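Pericyte and smooth muscle genes, called mural genes here for short, were described in mouse lung tumours driven by oncogenic K-Ras, with and without Mll4. They were chosen by symbol from a fixed list of 10 names (Acta2, Tagln, Myh11, Cnn1, Des, Myl9, Pdgfrb, Rgs5, Cspg4 and Actg2), and all 10 were found among the 24391 genes of the count files. The series held 4 bulk RNA sequencing samples in 2 groups of 2. The K-Ras group came from lung tumours of mice with a K-Ras LSL-G12D allele, which stays silent until Cre recombinase removes a stop cassette. The K-Ras Mll4-/- group carried the same K-Ras allele together with floxed Mll4 (Mll4 fl/fl), so mutant K-Ras was common to all samples, and the group is also called Mll4-/- here. Mll4, also called Kmt2d, encodes an enhancer-associated histone H3 lysine 4 methyltransferase. Tumours were dissociated with enzymes, red cells were lysed, and leukocytes were depleted on magnetic beads by their surface antigen CD45. Endothelial, mural and fibroblast cells were not targeted by that step. The Cre source, the age of the mice and whether tumours were pooled are not given in the sources used here. Nor do the labels say that replicates came from separate mice, so p-values measure only the spread between these samples, which may be technical.

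Mural cells wrap the endothelial tube. Pericytes sit on capillaries and are recruited by endothelial PDGF-B acting on the receptor encoded by Pdgfrb, while smooth muscle cells form layers around arteries, veins and airways and contract through smooth muscle actin and myosin. Many genes of the contractile programme are switched on by serum response factor (SRF) with its partner myocardin, bound to a promoter element known as the CArG box, and the same actin genes are also used by activated fibroblasts. In tumours, mural coverage of vessels is often irregular.

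RefSeq promoter windows (build GRCm38.p6) were matched to 6 of the 10 genes. The 250 bases before the annotated start of each were searched on both strands for the CArG box and for a CArG-like element with 1 G or C inside its A/T core. These letters are palindromic in form, so a match on one strand is a match on both. Acta2 and Myl9 held matches and are shown for that reason, with the matches in capitals. The Acta2 window is on the minus strand at chr19:34255374-34255623 and the Myl9 window is on the plus strand at chr2:156775214-156775463.
Acta2: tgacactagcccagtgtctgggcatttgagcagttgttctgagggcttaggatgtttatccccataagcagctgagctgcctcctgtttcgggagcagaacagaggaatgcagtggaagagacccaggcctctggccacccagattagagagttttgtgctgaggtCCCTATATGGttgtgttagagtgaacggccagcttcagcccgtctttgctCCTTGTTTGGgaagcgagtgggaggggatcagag
Myl9: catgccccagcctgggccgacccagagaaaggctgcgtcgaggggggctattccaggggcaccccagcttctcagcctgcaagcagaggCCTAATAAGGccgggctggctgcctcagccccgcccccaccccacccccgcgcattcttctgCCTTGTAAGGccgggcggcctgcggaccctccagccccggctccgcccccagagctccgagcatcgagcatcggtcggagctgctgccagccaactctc
Acta2 held 2 CArG-like elements, CCCTATATGG from 84 to 75 bases and CCTTGTTTGG from 34 to 25 bases before the annotated start. Myl9 held the CArG box CCTAATAAGG from 161 to 152 bases and the CArG-like element CCTTGTAAGG from 99 to 90 bases before it. Neither element was found in the windows of Cnn1, Des, Rgs5 and Cspg4. Among 32851 windows of the same length, 1.47% held a CArG box, 7.25% held a CArG-like element, and 0.67% held at least 2 elements of either kind. A match describes the letters of the window and was not tested as a binding site.

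Each sample had between 26683033 and 36677987 gene-assigned reads, with no separation of the groups by depth. The share of tallied reads not assigned to a gene did separate the groups. It was 65.56% and 64.46% in K-Ras replicates 1 and 2, and 60.55% and 60.12% in K-Ras Mll4-/- replicates 1 and 2. Its part in the fold changes was not tested. The targeted gene, Kmt2d, was at 395 and 526 CPM in K-Ras and at 367 and 317 CPM in K-Ras Mll4-/- tumours (log2 difference -0.43, SE 0.21, edgeR adjusted p = 0.302), so these gene totals do not show its loss, which is taken from the labels. CPM here means reads scaled to a common library size with TMM, a correction for differences in library composition. The 10 genes together took 0.0341% and 0.0239% of the gene-assigned reads in K-Ras replicates 1 and 2, and 0.0231% and 0.0200% in K-Ras Mll4-/- replicates 1 and 2. These shares describe the 10 genes and not all mural transcripts. Values with ± are SDs over the 2 samples of a group, and fold changes are K-Ras Mll4-/- minus K-Ras on the log2 scale with a 95% interval from the fitted model.

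Most of the 10 genes had lower mean levels in the K-Ras Mll4-/- tumours, but none passed the test. In simulated counts, the edgeR quasi-likelihood test recovered 87% of genes changed by 2 on the log2 scale when spread was shared. It recovered 0% when spread varied between genes, so the lack of a call does not show a lack of change. In the edgeR quasi-likelihood fit over 16001 genes, 0 of the 10 had an adjusted p under 0.05, against 0.0375% of all tested genes. The DESeq2 Wald test, the edgeR likelihood ratio test and limma-voom also called 0 of the 10, where DESeq2 called 10.0% and the likelihood ratio test called 9.39% of all genes and limma-voom called 0. Des alone had an unadjusted p under 0.05 in each of these 4 tests, and 21.8% of all genes did so in the quasi-likelihood fit. Negative fold changes were found for 8 of the 10 genes, beside 51.2% of all genes, and the median log2 fold change was -0.51 beside -0.01 over all genes. Without K-Ras replicate 1, 7 of the 10 were negative and the median was -0.15. Both K-Ras Mll4-/- samples lay below both K-Ras samples for 5 of the 10 (Acta2, Tagln, Cnn1, Des and Actg2), a pattern shared by 28.5% of all genes. The reverse held for 1 of the 10 (Cspg4), against 29.9% of all genes. The same 5 genes and the same 1 gene were found with each of the 4 scalings. All 10 genes passed the filter on low counts. With 2 samples against 2, an exact two-sided permutation test of a single gene cannot give a p below 0.333. In bulk tissue, fewer cells of a type and less RNA per cell cannot be told apart.

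**Figure D1:**
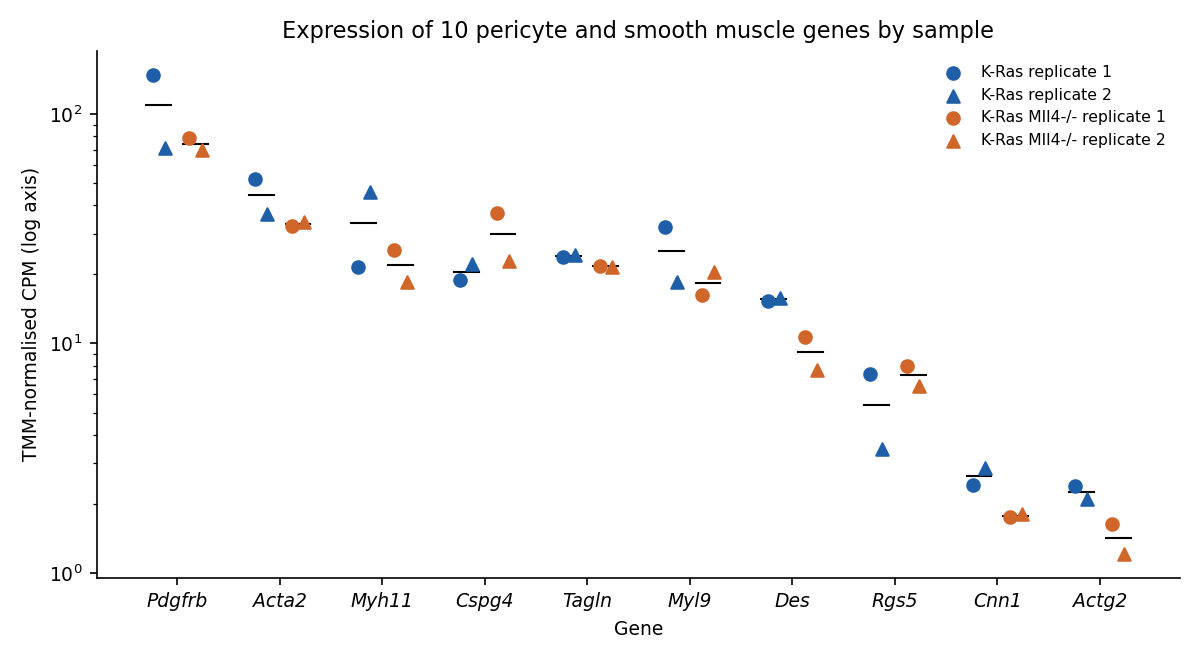
Each point is 1 sample's TMM-normalised CPM on a log axis for the gene named below it, with blue for K-Ras, orange for K-Ras Mll4-/-, circles for replicate 1 and triangles for replicate 2, and black lines at the group means. The groups separate for Acta2, Tagln, Des, Cnn1 and Actg2 with the orange points lower, whereas for Pdgfrb, Myl9, Myh11 and Rgs5 the blue points lie far apart and enclose or overlap the orange ones.

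Acta2 encodes smooth muscle alpha actin, the thin-filament actin of contractile mural cells and of myofibroblasts. It was at 52.0 and 36.7 CPM in K-Ras replicates 1 and 2, and at 32.5 and 33.8 CPM in K-Ras Mll4-/- replicates 1 and 2. The Mll4-/- samples were close to each other and the second K-Ras sample lay just above them, so the gap between the groups came mostly from K-Ras replicate 1. Group means were 44.3 ± 10.8 and 33.1 ± 0.898 CPM (SD, n = 2 each), and the fitted log2 change was -0.42 (SE 0.21, interval -0.96 to 0.12, edgeR adjusted p = 0.303). Without K-Ras replicate 1 the log2 fold change was -0.14.

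Actg2, the gene of smooth muscle gamma actin, is best known from visceral smooth muscle and was scarce here. It had 73 and 76 reads in the K-Ras samples and 43 and 39 in the K-Ras Mll4-/- samples, or 2.39, 2.10, 1.64 and 1.21 CPM in the same order. Both Mll4-/- samples were lower, but the exact counting intervals of K-Ras replicate 2 (1.66 to 2.63 CPM) and K-Ras Mll4-/- replicate 1 (1.19 to 2.21 CPM) overlapped. The log2 fold change was -0.66 (SE 0.36, interval -1.61 to 0.29, edgeR adjusted p = 0.344). Reads that aligned to more than 1 place were not assigned to any gene. They were 36.7% and 34.9% of all tallied reads in K-Ras replicates 1 and 2, and 34.1% and 31.5% in K-Ras Mll4-/- replicates 1 and 2. Actins are a family of closely similar genes, so the counts of both actins are uncertain as absolute levels.

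Tagln encodes transgelin (SM22-alpha), an actin-binding protein of early smooth muscle differentiation. It was the steadiest of the 10 genes, at 23.9 and 24.2 CPM in K-Ras and 21.9 and 21.6 CPM in K-Ras Mll4-/- tumours. The groups did not overlap, yet the difference was small, with means of 24.1 ± 0.237 and 21.7 ± 0.166 CPM (SD, n = 2 each). The log2 fold change was -0.15 (SE 0.14, interval -0.51 to 0.21, edgeR adjusted p = 0.561), so a fall to below 0.703 of the K-Ras level or a rise above 1.16 times that level lay outside the interval. In the GRCm38 GENCODE annotation, 108 of its 1988 exon bases (5.43%) overlap Pcsk7 on the opposite strand. The strand setting of the counting is not given in the sources used here, so reads of the 2 genes in that stretch cannot be told apart.

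Cnn1 encodes calponin 1, which binds actin and damps smooth muscle myosin activity, and marks mature smooth muscle. It had 74 and 104 reads in K-Ras and 46 and 58 reads in K-Ras Mll4-/- samples, or 2.42, 2.88, 1.75 and 1.80 CPM. Both Mll4-/- samples were below both K-Ras samples, with means of 2.65 ± 0.324 and 1.78 ± 0.0337 CPM (SD, n = 2 each). The log2 fold change was -0.58 (SE 0.32, interval -1.42 to 0.27, edgeR adjusted p = 0.352).

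Myh11 encodes smooth muscle myosin heavy chain, the motor of the contractile programme and its most specific marker. It was at 21.6 and 45.7 CPM in K-Ras replicates 1 and 2, and at 25.6 and 18.5 CPM in K-Ras Mll4-/- replicates 1 and 2. A single sample, K-Ras replicate 2, stood above the other three, and the groups overlapped. Means were 33.6 ± 17.1 and 22.1 ± 5.05 CPM (SD, n = 2 each), and the fitted log2 change was -0.61 (SE 0.41, interval -1.71 to 0.49, edgeR adjusted p = 0.435). Without K-Ras replicate 2 the log2 fold change was 0.020.

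Myl9 encodes the regulatory light chain of smooth muscle and non-muscle myosin, whose phosphorylation starts contraction. It was at 32.1 and 18.6 CPM in K-Ras and 16.3 and 20.5 CPM in K-Ras Mll4-/- tumours. Here K-Ras replicate 1 was the high sample, and K-Ras replicate 2 fell between the Mll4-/- samples. The log2 fold change was -0.46 (SE 0.32, interval -1.30 to 0.38, edgeR adjusted p = 0.440), and without K-Ras replicate 1 it was -0.012. Acta2, Myl9, Pdgfrb and Actg2 each had their highest value in K-Ras replicate 1, although for Actg2 the counting intervals of the K-Ras samples overlapped.

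Des encodes desmin, the intermediate filament of muscle cells and of many pericytes. It was at 15.3 and 15.8 CPM in K-Ras and at 10.7 and 7.69 CPM in K-Ras Mll4-/- tumours. The K-Ras samples were nearly equal and both Mll4-/- samples were well below them, with means of 15.6 ± 0.328 and 9.18 ± 2.10 CPM (SD, n = 2 each). The fitted level in K-Ras Mll4-/- tumours was 0.589 of that in K-Ras tumours (interval 0.386 to 0.899). This was the largest difference among the 10 genes and the only one whose interval left out 0, for a fitted log2 change of -0.76 (SE 0.23, edgeR unadjusted p = 0.0241), but it was not called after adjustment over all genes (edgeR adjusted p = 0.188). The gene ranked 2052 of 16001 by p-value, and 10.4% of all genes were lower and 11.4% higher at an unadjusted p under 0.05. Leaving out any 1 sample gave log2 fold changes from -1.01 to -0.55. Desmin is also made by striated muscle, and the markers of that tissue were few but not all absent. Tnni3, the cardiac troponin I gene, was at 3.30 and 6.09 CPM in K-Ras (101 and 220 reads) and at 1.10 and 1.09 CPM in Mll4-/- samples (29 and 35 reads), lower as Des was (log2 fold change -2.10, SE 0.43, edgeR unadjusted p = 0.00550, edgeR adjusted p = 0.153), and both DESeq2 and the likelihood ratio test called it lower. Of the 10 striated markers 8 were tested, 5 with negative and 3 with positive fold changes, and all 10 summed to 13.0 and 15.7 CPM in K-Ras against 9.56 and 11.6 CPM. Tnnt2, cardiac troponin T, was at 2.81 and 1.52 CPM against 2.78 and 4.25 CPM, with overlapping groups. Myh4 had 0 reads in all 4 samples, which allows up to 0.0830 to 0.114 CPM, Ckm had 3 to 8 reads, and Myh6 was between 1.31 and 1.49 CPM. The part of striated muscle in the values of Des was not tested.

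Pdgfrb encodes the beta receptor for platelet-derived growth factor, carried by pericytes, smooth muscle cells and many fibroblasts. It had the highest CPM of the 10 genes, at 148 and 71.0 CPM in K-Ras replicates 1 and 2, and at 79.0 and 69.9 CPM in K-Ras Mll4-/- replicates 1 and 2. One K-Ras sample was 2.09 times the other, while K-Ras replicate 2 lay within the range of the Mll4-/- samples. The log2 fold change was -0.56 (SE 0.38, interval -1.56 to 0.44, edgeR adjusted p = 0.430). Without K-Ras replicate 1 it turned to 0.072, and without K-Ras replicate 2 it was -1.01.

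Rgs5 encodes a regulator of G-protein signalling that is among the best markers of pericytes, including those of tumour vessels. It was at 7.36 and 3.46 CPM in K-Ras and at 7.998 and 6.52 CPM in K-Ras Mll4-/- tumours. The low value was that of K-Ras replicate 2, and the other three samples were close together. Its log2 fold change was 0.43 (SE 0.43, interval -0.72 to 1.57, edgeR adjusted p = 0.594), and without K-Ras replicate 2 it was -0.034.

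Cspg4 encodes the NG2 proteoglycan of the pericyte surface, which is also found on glial precursors and some tumour cells. It was at 18.8 and 22.3 CPM in K-Ras and at 37.0 and 22.96 CPM in K-Ras Mll4-/- tumours. Both Mll4-/- samples were above both K-Ras samples, although K-Ras Mll4-/- replicate 2 exceeded K-Ras replicate 2 by less than the counting error (intervals 21.3 to 24.7 and 20.8 to 23.9 CPM). The log2 fold change was 0.54 (SE 0.28, interval -0.19 to 1.28, edgeR adjusted p = 0.320), and it was 0.16 without K-Ras Mll4-/- replicate 1 and 0.84 without K-Ras Mll4-/- replicate 2. A correction for GC content and length, chosen after the data were seen, also gave 0.84, with an unadjusted p under 0.05 and no call. Sox10, a defining gene of glial precursors and Schwann cells, was between 0.0981 and 0.360 CPM, with 3 to 13 reads per sample. Of the 6 glial and neural markers, 4 were tested and 0 were called, and the summed level of all 6 was 5.04 and 10.3 CPM in the K-Ras samples and 4.46 and 5.86 CPM in the Mll4-/- samples.

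**Figure D2:**
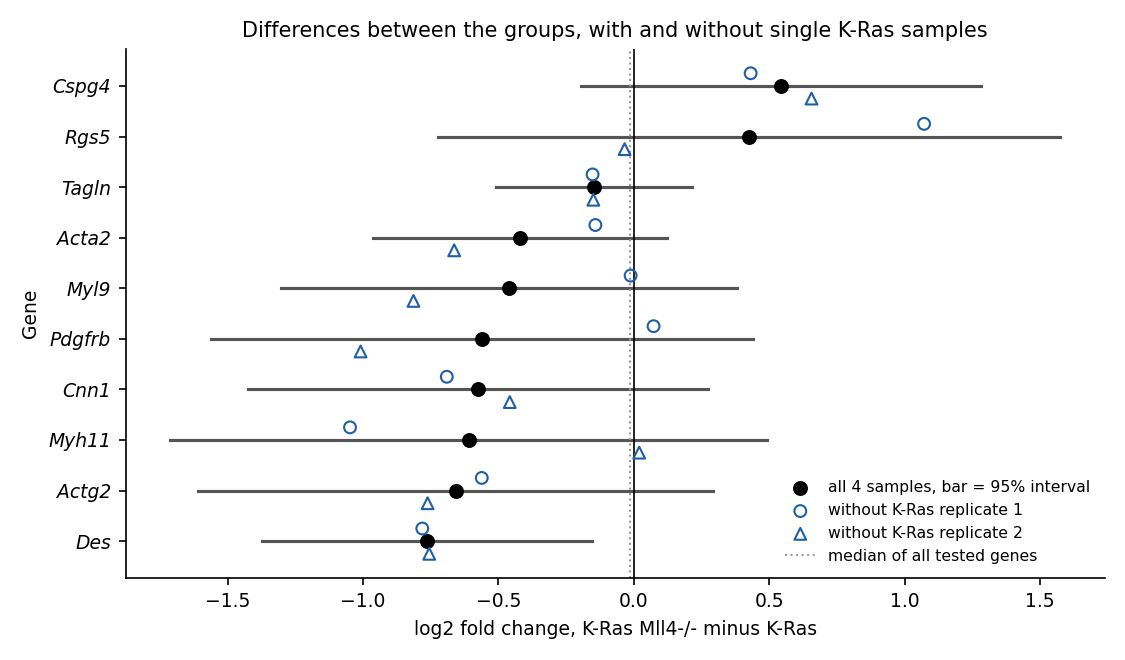
Black points are log2 fold changes of the 10 genes (K-Ras Mll4-/- minus K-Ras) with 95% intervals as bars, and open blue symbols are the values refitted without K-Ras replicate 1 (circle) or K-Ras replicate 2 (triangle). The bar of Des alone stays clear of 0, the open symbols of Pdgfrb, Myh11 and Rgs5 fall on both sides of 0, and those of Des and Tagln stay close to the full fit.

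Compared per length of exon, 3 genes stood at a like level and led the list. The length used was that of all annotated exons of a gene, which need not match the transcripts expressed here. The actin counts stay uncertain as absolute levels, as given above. Over the 4 samples, Myl9 averaged 18.8, Acta2 17.6 and Pdgfrb 16.8 CPM per kilobase, with ranges that overlapped from each to the next. Tagln followed at 11.5 CPM per kilobase and was below Pdgfrb in all 4 samples, its highest value (12.2) being under the lowest of Pdgfrb (12.8). A wide step then separated Tagln from Myh11 at 3.66 CPM per kilobase, which in turn overlapped Des at 3.30. The levels of Cspg4 (2.12), Rgs5 (1.39), Actg2 (1.18) and Cnn1 (0.809) were lower still, and each overlapped its neighbour in this order. For scale, Actb, the cytoplasmic beta actin gene, was at 1764 CPM per kilobase, and Myh10, a non-muscle myosin gene, at 5.56. Rgs5, a leading pericyte marker, was thus lower than Pdgfrb on this scale in every sample.

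The K-Ras samples differed from each other more than the Mll4-/- samples did. Between the K-Ras samples, 4 of the 10 genes differed by at least 1.5 times, beside 27.4% of all genes. Pdgfrb, Rgs5 and Myl9 were higher in K-Ras replicate 1, by 2.09, 2.13 and 1.72 times, and Myh11 was higher in K-Ras replicate 2, by 2.12 times. Between the Mll4-/- samples only Cspg4 did so, by 1.61 times in favour of replicate 1, beside 16.1% of all genes. Tagln, Des, Cnn1, Cspg4 and Actg2 differed between the K-Ras samples by 1.19 times or less. Among 12 other pericyte genes, 5 were higher in K-Ras replicate 1 by at least 1.5 times (Vtn, Gucy1a3, Kcnj8, Trpc6 and Gucy1b3), as were 11.9% of all genes, and Vtn had only 4 to 11 reads. Of the same 12, 1 was higher in K-Ras replicate 2 by at least 1.5 times, as were 15.5% of all genes. It was Higd1b, by 2.15 times (24 and 61 reads in K-Ras replicates 1 and 2). Among 13 other contractile genes, 0 were higher in K-Ras replicate 1 by at least 1.5 times. Lmod1, which encodes the actin nucleator leiomodin 1 of smooth muscle and was named after its values were seen, was 2.01 times higher in K-Ras replicate 2.

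**Figure D3:**
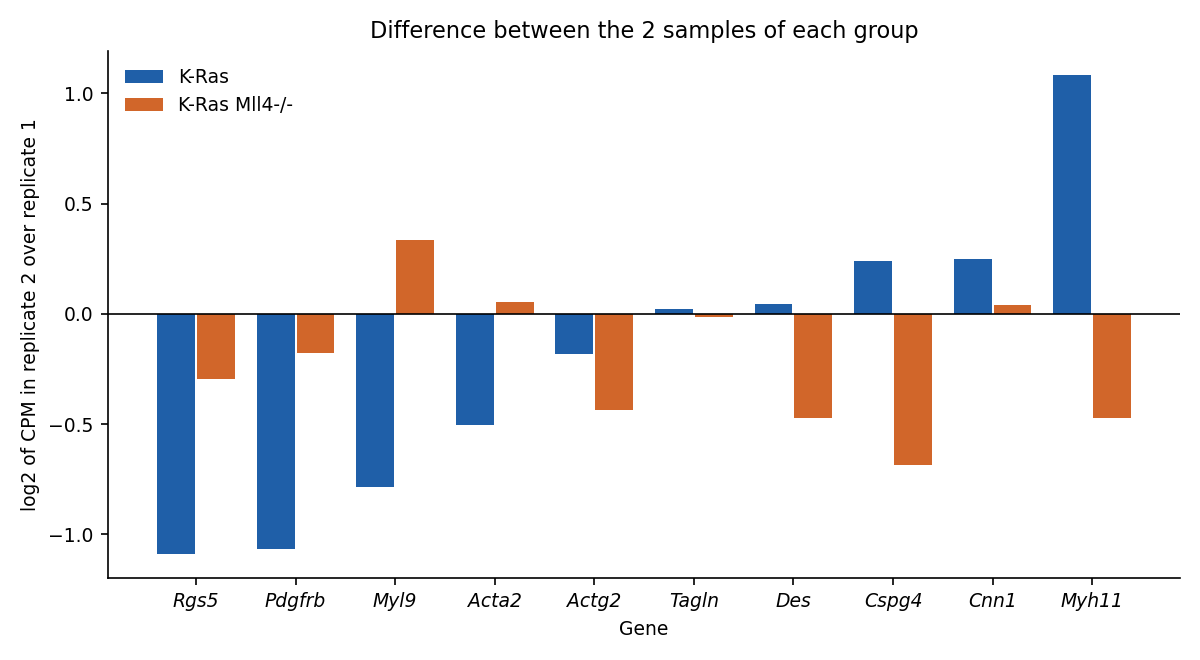
Bars give the log2 ratio of CPM in replicate 2 over replicate 1 within each group, blue for K-Ras and orange for K-Ras Mll4-/-, with genes ordered by the K-Ras ratio. In K-Ras tumours Rgs5, Pdgfrb and Myl9 lie well below 0 and Myh11 well above it, while Tagln is near 0 in both groups.

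Markers of other cell types moved with these samples. The summed level of 8 airway epithelial markers, a list chosen after earlier results were known, was 4781 CPM in K-Ras replicate 2 against 720 to 914 CPM in the other three samples, and all 8 were higher in K-Ras replicate 2 than in K-Ras replicate 1 by at least 1.5 times. Foxj1, the master regulator of motile cilia, was at 222 CPM in K-Ras replicate 2 and 12.8 to 27.8 CPM elsewhere. Myh11 and Lmod1 were highest in this sample, but the contractile list as a whole was not set apart there, with 2 of 13 genes (15.4%) at least 1.5 times higher in K-Ras replicate 2 than in K-Ras replicate 1 beside 15.5% of all genes. The 10 fibroblast markers summed to 4028 CPM in K-Ras replicate 1 and 1756 to 2143 CPM in the other three samples, and 5 of the 10 were at least 1.5 times higher in K-Ras replicate 1 than in K-Ras replicate 2. This is the sample in which Pdgfrb, Acta2, Myl9 and Actg2 were highest. For Actg2 the counting intervals of K-Ras replicates 1 and 2 overlapped (1.87 to 3.00 and 1.66 to 2.63 CPM). Tagln, Myh11, Cnn1, Des, Rgs5 and Cspg4 were highest in other samples. Immune markers were also high in K-Ras replicate 1, with 5 of 6 at least 1.5 times above K-Ras replicate 2. Their sums were 645 and 259 CPM in K-Ras replicates 1 and 2, and 541 and 307 CPM in Mll4-/- replicates 1 and 2. Ptprc, the gene of the depleted antigen CD45, was at 274 and 143 CPM in K-Ras and at 269 and 171 CPM in Mll4-/- samples. In the 8 epithelial markers the order was turned, with 9820 CPM in K-Ras replicate 1 and 18100 to 19793 CPM in the other samples. The surfactant genes Sftpc and Sftpb made up most of these sums. In K-Ras replicates 1 and 2, Sftpc was at 5842 and 10747 CPM and Sftpb at 2871 and 5629 CPM. For 6 of the 8 markers, both Mll4-/- samples lay above both K-Ras samples, beside 29.9% of all genes. The groups overlapped for the other 2 (Sftpc and Nkx2-1). The part of these differences in cell content in the values of the 10 genes was not tested.

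Other stromal lists were lower in K-Ras Mll4-/- tumours on average, and no gene of any list was called by the edgeR quasi-likelihood test. Of 10 fibroblast markers, 9 had negative fold changes with a median of -0.83, 4 were lower at an unadjusted p under 0.05, and both Mll4-/- samples lay below both K-Ras samples for 9. Col1a2, a chain of type I collagen, had 627 and 243 CPM in K-Ras and 180 and 195 CPM in Mll4-/- samples, for a fitted log2 change of -1.21 (SE 0.48, edgeR adjusted p = 0.243). Of 10 endothelial markers, 9 had negative fold changes with a median of -0.76, 7 were lower at an unadjusted p under 0.05, and 8 had both Mll4-/- samples below both K-Ras samples. DESeq2 called 7 of the 10 endothelial markers lower and the likelihood ratio test 4, and for fibroblast markers these tests called 2 and 1. Of all genes, 51.2% had negative fold changes, 10.4% were lower at an unadjusted edgeR p under 0.05 and 28.5% had both Mll4-/- samples below both K-Ras samples. DESeq2 called 10.0% and the likelihood ratio test 9.39% of all genes in either direction. The fibroblast markers summed to 4028 and 2143 CPM in K-Ras against 1756 and 1784 CPM, so K-Ras replicate 1 weighed most. Vwf, the gene of von Willebrand factor, was at 2670 and 2207 CPM in K-Ras against 1158 and 958 CPM (log2 fold change -1.20, SE 0.23, edgeR adjusted p = 0.147). The 10 endothelial markers summed to 8061 and 7521 CPM in K-Ras against 4976 and 3916 CPM in Mll4-/- samples. The 10 mural genes summed to 324 and 243 CPM against 234 and 204 CPM, so their groups also did not overlap, although K-Ras replicate 2 was close to the Mll4-/- samples. Pdgfrb carried most of the gap between the K-Ras sums. Without it the other 9 genes summed to 176 and 172 CPM in K-Ras and 155 and 135 CPM in Mll4-/- samples. Opposite differences offset each other in those 2 K-Ras sums. Myh11 was at 21.6 and 45.7 CPM, whereas Acta2 was at 52.0 and 36.7 CPM and Myl9 at 32.1 and 18.6 CPM. The 8 epithelial markers went the other way, with 7 fold changes positive and a median of 1.07. At an unadjusted edgeR p under 0.05, 5 of them were higher, beside 11.4% of all genes, and DESeq2 called 5 higher. The 8 airway epithelial markers did not go the other way, with 8 fold changes negative and a median of -2.06. Of these, 4 were lower at an unadjusted edgeR p under 0.05 and DESeq2 called 5 lower. Their sums were 914 and 4781 CPM in K-Ras replicates 1 and 2 and 882 and 720 CPM in Mll4-/- replicates 1 and 2. Whether the mural genes differed from these lists was not tested.

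**Figure D4:**
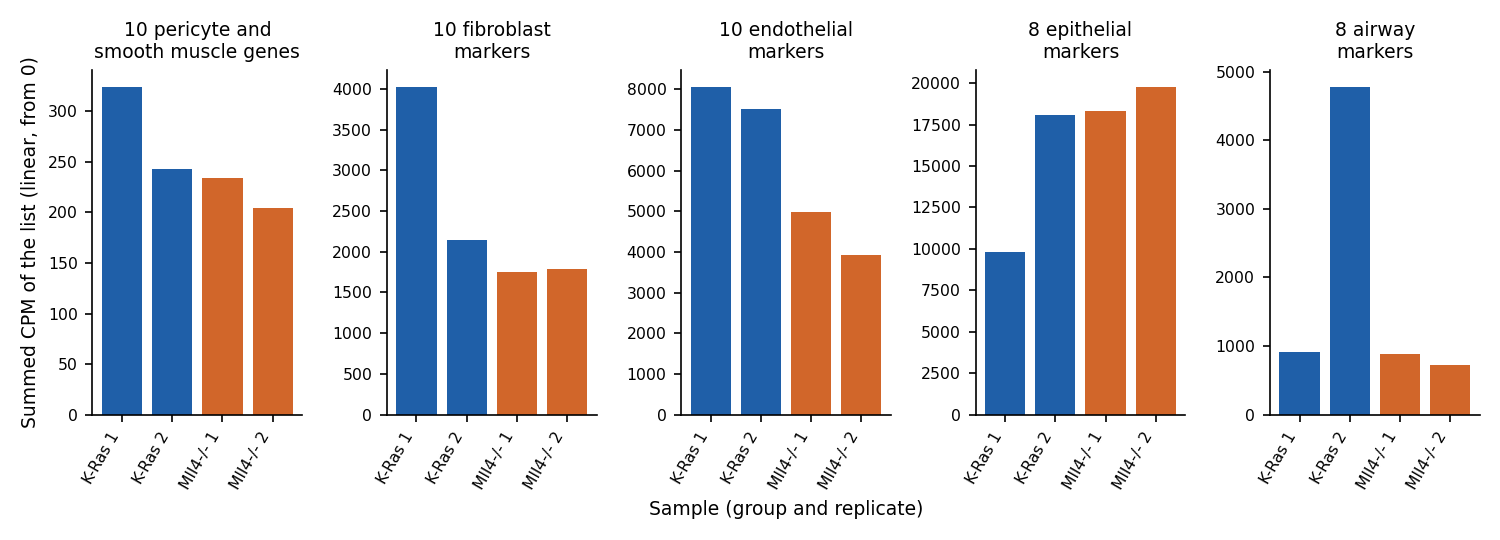
Bars are summed CPM per sample (linear axes that start at 0 and differ between panels) for the 10 mural genes and for fibroblast, endothelial, epithelial and airway markers, blue for K-Ras and orange for K-Ras Mll4-/-. K-Ras replicate 1 has the highest mural sum (324 CPM, of which Pdgfrb is 148 CPM) and fibroblast sum (4028 CPM). It also has the lowest epithelial sum (9820 CPM), and K-Ras replicate 2 has the highest airway sum (4781 CPM). Sftpc and Sftpb make up most of the epithelial sums.

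Other genes of the contractile apparatus gave a mixed picture. Of the 13, 10 had negative fold changes, beside 51.2% of all genes, with a median of -0.39, and 0 were called. At an unadjusted edgeR p under 0.05, 2 were lower and 2 higher, beside 10.4% and 11.4% of all genes. DESeq2 called 1 lower (Mylk) and 2 higher (Tpm1 and Tpm2), the likelihood ratio test also called 1 lower and 2 higher, and limma-voom called 0. Of all genes, DESeq2 called 10.0% and the likelihood ratio test 9.39%. Both Mll4-/- samples were below both K-Ras samples for 8 of the 13 and above them for 3, beside 28.5% and 29.9% of all genes. Among the 8 was Mylk, the myosin light chain kinase, at 249 and 260 CPM in K-Ras against 146 and 135 CPM in Mll4-/- samples. Mylk, which is named in addition to the genes fixed by rule and was chosen after its values were seen, gave a log2 change of -0.86 (SE 0.13, edgeR adjusted p = 0.139). The tropomyosin genes lay on the other side. Tpm2, beta tropomyosin, was at 19.2 and 17.0 CPM in K-Ras and at 88.2 and 149 CPM in Mll4-/- samples, for a fitted log2 change of 2.71 (SE 0.30, interval 1.91 to 3.51, edgeR adjusted p = 0.119). Tpm1, alpha tropomyosin, was at 290 and 301 CPM against 474 and 672 CPM, for a fitted log2 change of 0.96 (SE 0.22, edgeR adjusted p = 0.163). Flna, the broadly expressed actin cross-linker filamin A, was the most abundant of the list, at 1322 and 1361 CPM against 1707 and 1769 CPM (log2 fold change 0.37, SE 0.18, edgeR adjusted p = 0.306). Tropomyosins and filamin A are made by many cell types, epithelial cells included.

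Of 7 regulators tied to SRF and myocardin, 0 were called, and the median log2 fold change was -0.10. At an unadjusted edgeR p under 0.05, 2 were lower and 1 higher, beside 10.4% and 11.4% of all genes. DESeq2 called Mkl2 lower and Fhl2 higher, beside 10.0% of all genes called in either direction. The likelihood ratio test called 1 higher and 0 lower, beside 9.39% of all genes, and limma-voom called 0. Myocd, the myocardin gene, whose product is the muscle-restricted partner of SRF, had 54 and 66 reads in K-Ras and 18 and 26 reads in Mll4-/- samples, or 1.77, 1.83, 0.686 and 0.807 CPM. Its log2 fold change was -1.26 (SE 0.37, edgeR adjusted p = 0.185), and the groups did not overlap. Mkl2, a myocardin-related coactivator made in many cells, was at 271 and 253 CPM against 187 and 179 CPM (log2 fold change -0.52, SE 0.14, edgeR adjusted p = 0.173). Srf itself, given because the list is named for it and chosen after its values were seen, was at 53.5 and 62.2 CPM against 62.5 and 64.8 CPM (log2 fold change 0.14, SE 0.14, edgeR adjusted p = 0.579). Csrp1, a LIM-domain protein of smooth muscle and other cells, was at 296 and 337 CPM against 316 and 275 CPM, and its groups overlapped. Fhl2, a LIM-domain cofactor, differed in the opposite direction to Myocd, from 4.74 and 5.76 CPM in K-Ras to 23.5 and 42.4 CPM in Mll4-/- samples (log2 fold change 2.65, SE 0.35, edgeR adjusted p = 0.135).

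The 12 further pericyte genes were split evenly, with 6 fold changes of each sign and a median of -0.07. The groups overlapped for 8 of the 12, beside 6668 of all 16001 tested genes. The quasi-likelihood test, DESeq2, the likelihood ratio test and limma-voom each called 0 of the 12. An unadjusted edgeR p under 0.05 was found for 1 of the 12, beside 21.8% of all genes. Notch3, the Notch receptor of mural cells, was almost level across the samples, at 31.2 and 30.7 CPM in K-Ras and 30.8 and 31.2 CPM in Mll4-/- samples (log2 fold change 0.00, SE 0.13, interval -0.33 to 0.33, edgeR adjusted p = 0.992). Kcnj8, a subunit of the pericyte ATP-sensitive potassium channel, was at 13.0 and 6.28 CPM against 5.41 and 5.09 CPM (log2 fold change -0.88, SE 0.41, edgeR adjusted p = 0.290). Ndufa4l2, a mitochondrial protein gene enriched in pericytes, was at 2.16 and 1.58 CPM against 3.24 and 2.54 CPM (log2 fold change 0.63, SE 0.36, edgeR adjusted p = 0.357). Mcam, an adhesion molecule shared by mural and endothelial cells, was at 501 and 488 CPM against 385 and 284 CPM (log2 fold change -0.56, SE 0.21, edgeR adjusted p = 0.220).

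Ligand and receptor genes tied to signalling among endothelial, mural and fibroblast cells were listed next, 13 in all. These values are RNA levels, and signalling itself was not measured. Fold changes were negative for 10, beside 51.2% of all genes, with a median of -0.46. At an unadjusted edgeR p under 0.05, 7 were lower and 1 higher, beside 10.4% and 11.4% of all genes, and 0 were called. Whether this list differed from the endothelial (median -0.76) and fibroblast markers (median -0.83) was not tested. DESeq2 called 3 lower (Pdgfra, Tek and Acvrl1), the likelihood ratio test also called 3 lower, and limma-voom called 0. Pdgfra is also in the fibroblast list and Tek in the endothelial list, so those 2 calls are not separate from the counts given for these lists. Tek, the angiopoietin receptor of endothelial cells, was at 435 and 512 CPM in K-Ras and 279 and 249 CPM in Mll4-/- samples (log2 fold change -0.84, SE 0.17, edgeR adjusted p = 0.153). Acvrl1, an endothelial receptor of the TGF-beta family, was at 704 and 820 CPM against 488 and 378 CPM (log2 fold change -0.82, SE 0.21, edgeR adjusted p = 0.173). Pdgfb, the ligand that recruits pericytes through Pdgfrb and was named after its values were seen, was at 147 and 164 CPM against 123 and 103 CPM (log2 fold change -0.46, SE 0.16, edgeR adjusted p = 0.207). The alpha receptor gene Pdgfra, a fibroblast gene, differed more than Pdgfrb and without overlap, at 196 and 153 CPM against 77.7 and 74.1 CPM (log2 fold change -1.20, SE 0.17, edgeR adjusted p = 0.135). Pdgfc, a ligand of the alpha receptor, was at 3.89 and 2.96 CPM against 7.16 and 7.07 CPM (log2 fold change 1.05, SE 0.27, edgeR adjusted p = 0.171).

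**Figure D5:**
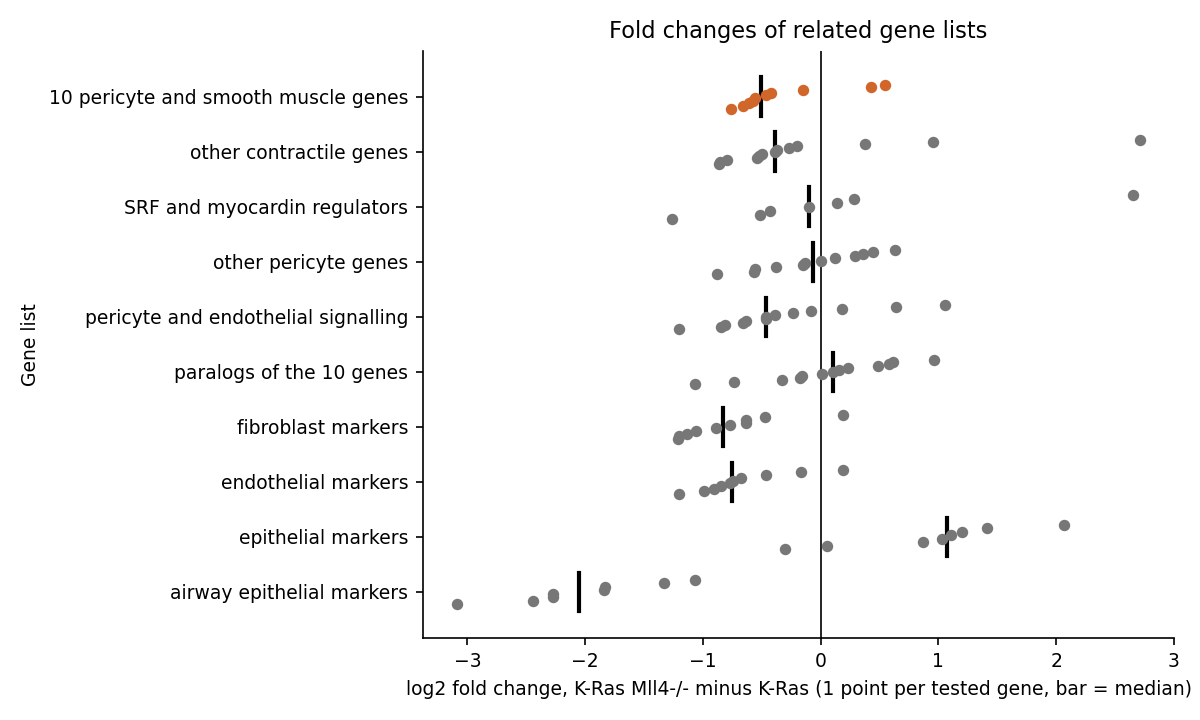
Each point is the log2 fold change (K-Ras Mll4-/- minus K-Ras) of 1 tested gene in the list named at the left, and black bars are list medians. The 10 mural genes (orange) have a median of -0.51, between those of the other contractile genes (-0.39) and of the endothelial (-0.76) and fibroblast markers (-0.83). The medians are 1.07 for the epithelial markers and -2.06 for the airway epithelial markers.

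Paralogs of the 10 genes that serve the cytoskeleton of other cells were also listed, and 13 of 14 were tested. Their median log2 fold change was 0.11, 8 were positive and 5 negative, and 0 were called. At an unadjusted edgeR p under 0.05, 2 were higher and 1 lower, beside 11.4% and 10.4% of all genes. DESeq2 called 2 higher (Actg1 and Cnn2) and 1 lower (Myh10), beside 10.0% of all genes called in either direction. The likelihood ratio test called 0 higher and 1 lower, beside 9.39% of all genes, and limma-voom called 0. Actb was at 4283 and 3599 CPM in K-Ras and 5646 and 5379 CPM in Mll4-/- samples (log2 fold change 0.48, SE 0.23, edgeR adjusted p = 0.297). Myh9, non-muscle myosin heavy chain, was at 2652 and 2733 CPM against 3144 and 2872 CPM (log2 fold change 0.16, SE 0.21, edgeR adjusted p = 0.677). The striated actins Actc1 and Acta1 were scarce, between 0.457 and 2.10 CPM and between 0.229 and 1.27 CPM, with groups that overlapped.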

How the data were processed

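The members and gene lists were chosen with earlier results of these data known. Each of the 4 samples had 1 deposited file of raw read counts per gene symbol. STAR, HTSeq, CASAVA 1.4 and build mm9 are named in the submitters' processing notes. The annotation and strand setting are not given in the sources used here, so positions are printed only for RefSeq promoter windows (GRCm38.p6). The 5 closing tally lines, 60.1% to 65.6% of all tallied reads and higher in both K-Ras samples, were left out of library sizes and tests.

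Groups came from sample titles. Counts were fitted with edgeR 4.0.16 in R 4.3.3 (default filterByExpr, TMM, robust quasi-likelihood test, Benjamini-Hochberg adjustment over 16001 genes, threshold 0.05). The SE is the log2 fold change divided by the square root of F, and intervals use the fitted degrees of freedom. Single-sample intervals are exact Poisson and cover counting error only, and 3 reads was the detection floor. Exon length was the merged length of all exons of a gene in GENCODE M21. All 10 members were named, and from each list the 2 most abundant genes and the 2 with the largest absolute log2 fold change were considered. Of the lists, the immune one (6 genes, median log2 fold change 0.00), the striated muscle one (8 of 10 tested, median -0.43), the mesothelial one (3 of 5 tested, median -0.40), the glial one (4 of 6 tested, median -0.76) and the airway one (8 genes, median -2.06) served as markers of other cells. In simulated counts with 200 genes changed by 2 on the log2 scale among 15846, the test recovered 87% with 4 false calls when spread was shared. With each gene's estimated spread multiplied by a random factor that raised it on average (15755 genes), it recovered 0%. Alternatives were other scalings, count filters, DESeq2 1.42.0, the likelihood ratio test, limma-voom (limma 3.58.1), the replicate number as a block, leaving out each sample and, chosen after seeing the data, GC and length offsets (mgcv), for which 15869 of the 16001 genes had values.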

Additional observations from a re-analysis of the deposited data

How the results depend on the processing

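With 2 samples a group, single libraries decided several values. None of the 10 genes was called under any of the 15 alternatives run. Acta2, Tagln, Cnn1, Des, Myl9 and Actg2 stayed lower, and Cspg4 higher, in all 15. A kept sign did not mean a kept size. Without K-Ras replicate 1, the log2 fold change was -0.012 for Myl9 and -0.14 for Acta2. Without K-Ras Mll4-/- replicate 1, it was 0.16 for Cspg4. When 1 sample was left out, Pdgfrb ranged from -1.01 to 0.072 (positive without K-Ras replicate 1), Myh11 from -1.05 to 0.020 (positive without K-Ras replicate 2) and Rgs5 from -0.034 to 1.07 (negative without K-Ras replicate 2). The median log2 fold change of the 10 genes, -0.51 in the reported fit, was -0.57 with upper-quartile and -0.57 with total-count scaling, -0.43 with limma-voom, -0.42 with GC and length offsets, and from -0.56 to -0.15 when 1 sample was left out, the smallest without K-Ras replicate 1. Over all genes, 6 calls became 44 with the loose count filter, 1601 with DESeq2, 1503 with the likelihood ratio test, 0 with limma-voom (3228 at an unadjusted p under 0.05), and from 0 to 528 when 1 sample was left out, 528 without K-Ras replicate 1 and 0 without each of the other three. The cause was not tested. The labels give both groups replicate numbers 1 and 2. Deviations of same-numbered samples correlated at 0.21 across genes, and with the labels silent on what a number shares, the numbers were not taken as pairs. The replicate block gave 217 calls, 0 of the 10 genes among them, and a median of -0.44, and the block together with those offsets gave 374 calls and a median of -0.37. Actg2 and Cnn1, with 39 to 104 reads per sample, are the genes most limited by depth.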

Other observations

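The contractile genes can be set against their non-muscle relatives within each library, which removes any scaling of the library. The pairs were chosen after the values were seen, the ratios carry no test, and a ratio shows unequal change of its genes only. Acta2, the smooth muscle actin gene, had 1.21 and 1.02 reads per 100 reads of the cytoplasmic actin gene Actb in K-Ras replicates 1 and 2, and 0.575 and 0.628 in K-Ras Mll4-/- replicates 1 and 2. Cnn1 had 1.22 and 1.4001 reads per 100 reads of Cnn2, the calponin gene of non-muscle cells, in K-Ras and 0.618 and 0.541 in Mll4-/- tumours. Against Cnn3, another non-muscle calponin gene, Cnn1 gave 1.52 and 1.77 against 1.09 and 1.41, so 1 of the Mll4-/- libraries was close to K-Ras replicate 1. Cnn2 and Actb themselves had positive log2 fold changes, 0.61 and 0.48, that the edgeR quasi-likelihood test did not call. Tagln per 100 reads of Tagln2 gave 9.24 and 8.84 against 7.80 and 8.42, a narrower gap. Myh11 per 100 reads of Myh9 gave 0.813 and 1.67 against 0.815 and 0.644, so the groups overlapped. Myl9 did not overlap against Myl12a (15.0 and 8.87 against 6.39 and 8.41) but did against Myl12b (11.3 and 6.43 against 5.13 and 6.85).

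Msln, the mesothelin gene, was at 13.8 and 17.0 CPM in K-Ras and 120 and 221 CPM in Mll4-/- tumours (log2 fold change 3.47, SE 0.36, edgeR adjusted p = 0.116), while the other mesothelial genes Upk3b and Wt1 were under 1 CPM in all samples and Upk1b was lower in Mll4-/- tumours, at 6.93 and 4.32 against 2.74 and 2.20 CPM (log2 fold change -1.18, SE 0.36, edgeR adjusted p = 0.189). Krt18, a keratin gene of simple epithelia, was at 177 and 277 CPM against 1065 and 834 CPM (log2 fold change 2.07, SE 0.30, edgeR adjusted p = 0.136).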
